A study of Homo sapiens with 18 samples.

Results

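Keratin genes were followed in 2 human lung cancer cell lines, A549 and H1299, each carrying either shPPP2R2A-1 or shPPP2R2A-2, which are hairpins against PPP2R2A, or a control hairpin (shcon). Keratins were taken as the protein-coding entries of the deposited count table whose symbol is KRT followed by a number and, at most, a letter from A to C. This gave 56 entries (55 symbols, since KRT222 is listed under 2 gene IDs) of 57773 in the table and of 20327 that are protein coding. Bulk RNA-Seq of stranded mRNA libraries covered 6 groups with 3 libraries each, namely A549 shPPP2R2A-1, A549 shPPP2R2A-2, A549 shcon, H1299 shPPP2R2A-1, H1299 shPPP2R2A-2 and H1299 shcon. A549 is a lung adenocarcinoma line and H1299 comes from a lymph node metastasis of a large cell lung carcinoma. All 6 groups were grown in the same medium with serum. The text of the study calls its human KD cells pooled populations without naming the sequenced libraries, and the labels do not say whether the 3 repeats of a group are separate cultures, so that the spread between libraries may be technical.

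Keratins are the intermediate filament proteins of epithelial cells. An acidic type I and a basic type II keratin pair to form each filament, and the filaments are tied to neighbouring cells through desmosomes. Simple epithelia such as the lining of the lung are known for KRT8 with KRT18, joined by KRT7 and KRT19. Stratified epithelia use other pairs such as KRT4 with KRT13 or KRT1 with KRT10, and a separate set of sulfur-rich hair keratins builds the hair shaft. Of the 56 entries, 30 were type I and 26 were type II.

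The target of the hairpins, PPP2R2A, gives PP2A phosphatase one of its regulatory subunits and was counted first as a check of the labels. In CPM (counts per M, scaled with TMM factors), it stood at 9.27, 11.2 and 7.36 under shPPP2R2A-1 and at 10.7, 13.1 and 15.4 under shPPP2R2A-2 in A549, against 84.2, 48.7 and 86.2 in A549 shcon. In H1299 it stood at 7.32, 9.82 and 6.51 under shPPP2R2A-1 and at 18.1, 17.7 and 14.5 under shPPP2R2A-2, against 104.3, 73.7 and 84.7 in H1299 shcon. No knockdown (KD) library overlapped a control library of its line. The libraries held 35.7 M to 69.3 M counts. All 10 epithelial markers had counts in A549 shcon, where they summed to 67.6 to 134 CPM, and 8 of 10 had counts in H1299 shcon, where they summed to 20.4 to 29.8 CPM. CDH1 (E-cadherin) averaged 64.7 CPM in A549 shcon and 0.0136 CPM in H1299 shcon, whereas OCLN (occludin) averaged 13.6 CPM in A549 shcon and 25.4 CPM in H1299 shcon. Of 10 leukocyte markers, 8 had counts in A549 shcon, with CD14 highest at a mean of 10.2 CPM, and 6 had counts in H1299 shcon, with ITGAM highest at a mean of 3.39 CPM.

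A549 expressed many more keratins than H1299. At least 1 read was counted for 47 of the 56 entries in A549 and for 30 in H1299, and 6 entries had no count in any library. Of the 56, 17 passed the filter on low counts in A549 and 7 passed in H1299, and 14 and 7 of these averaged at least 1 CPM in a group of the line. The 39 entries that were not tested in A549 included all 9 root sheath keratins and 17 of the 21 stratified epithelial ones, and none of the 39 exceeded 0.466 CPM in an A549 library. In H1299, 49 entries were not tested, and the highest value among them was 0.272 CPM. The 7 keratins tested in H1299 were KRT7, KRT8, KRT10, KRT15, KRT18, KRT34 and KRT80, all of which were also tested in A549.

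In A549 shcon, 4 keratins stood far above the rest. Per kilobase of transcript, a scale that allows different genes to be compared, KRT8 averaged 3147 ± 647 CPM (SD, n = 3) and its partner KRT18 averaged 2978 ± 1016, and these differed by less than their spread. The hair keratin KRT81 followed at 1668 ± 410 and KRT7, a simple epithelial keratin of ducts and lung, at 1472 ± 386 CPM per kilobase, and these also differed by less than their spread. KRT19, the smallest keratin and one of simple epithelia, was next with 176 ± 32.5 CPM per kilobase. Below it came KRT10 with 27.96 ± 6.82, KRT80 with 26.02 ± 16.9, KRT4 with 10.9 ± 8.26 and KRT86 with 7.35 ± 4.86 CPM per kilobase, where neighbours in the order again overlapped.

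H1299 shcon had a short list with another order. KRT18 averaged 329 ± 131 CPM per kilobase and KRT8 averaged 99.2 ± 37.8. KRT80, a type II keratin of many epithelia, came next with 40.2 ± 12.2, followed by KRT15, a keratin of basal cells, with 7.74 ± 3.16, KRT10, a partner of KRT1 in the epidermis, with 6.06 ± 1.42 and KRT7 with 1.70 ± 0.48 CPM per kilobase. KRT15 and KRT10 did not differ beyond their spread. The plot of keratin levels with the control hairpin shows all 17 tested keratins in both lines.

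**Figure D1:**
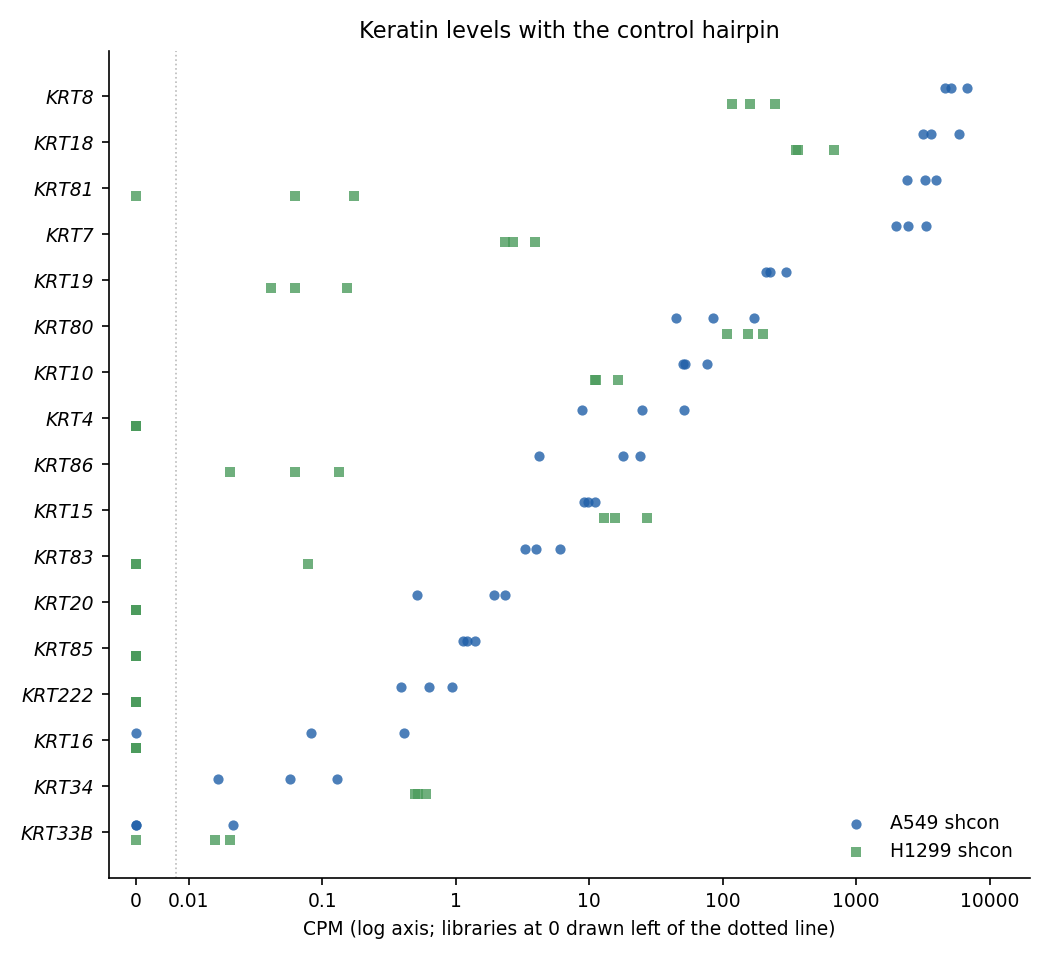
CPM of the 17 tested keratins in the 3 A549 shcon libraries (circles) and the 3 H1299 shcon libraries (squares), on a log axis. KRT81 and KRT19 lie at or above 211 CPM in A549 and at or under 0.172 CPM in H1299, whereas KRT80 and KRT15 lie close together in both lines.

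Between the control groups, 13 of the 17 keratins tested were higher and 2 were lower in A549 than in H1299, so 15 were called (edgeR quasi-likelihood test, Benjamini-Hochberg adjusted p under 0.05). Of all 18827 genes tested in that comparison, 56.0% were called, 30.6% as higher and 25.4% as lower. The median log2 difference was 7.12 over the tested keratins and 0.0712 over all genes tested. Only 7 of the 17 passed the filter on low counts in H1299, and the others entered this comparison through A549 libraries. The counts and the median over the 17 are thus not independent of that filter. Of those passing it in both lines, KRT7, KRT8, KRT10 and KRT18 were higher in A549, KRT15 and KRT34 were lower, and KRT80 was not called. In bulk RNA, fewer cells of a type and less RNA per cell cannot be told apart.

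The simple epithelial keratins carried much of this difference. KRT8 stood at 4607, 6793 and 5167 CPM in A549 shcon, against 247, 159 and 117 CPM in H1299 shcon, a log2 difference of 4.99 (SE 0.33, adjusted p = 6.1e-10). KRT18 stood at 3148, 5867 and 3670 CPM in A549 shcon, against 682, 364 and 357 CPM in H1299 shcon (log2 difference 3.18, SE 0.33, adjusted p = 2.3e-07). KRT7 stood at 3322, 2427 and 1995 CPM in A549 shcon, against 2.33, 3.93 and 2.698 CPM in H1299 shcon (log2 difference 9.76, SE 0.73, adjusted p = 2.7e-09). None of these groups overlapped. KRT19 had 39007 counts over the 3 A549 shcon libraries, against 14 in H1299 shcon, a ratio of 2893 with a counting interval of 1724 to 5291 (exact Clopper-Pearson, 95%, counting error only).

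Of the hair keratins, which build the hair shaft, KRT81 was abundant in A549, and 11 of the 17 were not tested there, with at most 0.106 CPM in any A549 library. KRT81 stood at 3257, 3989 and 2407 CPM in A549 shcon, whereas only 13 counts were found over the 3 H1299 shcon libraries. The ratio of KRT81 was 40320 with a counting interval of 23580 to 75720. Together, hair keratins took 0.0642% to 0.118% of all keratin counts in H1299 shcon, where KRT34 had 88 counts against the 13 of KRT81. In A549 shcon they took 17.7% to 22.2%, nearly all of it KRT81. Other type II hair keratins of the same stretch of the genome were present at lower levels. KRT86 stood at 23.99, 17.9 and 4.18 CPM, KRT83 at 3.99, 6.003 and 3.32 CPM and KRT85 at 1.22, 1.13 and 1.39 CPM in A549 shcon, against 12, 5 and 0 counts over the H1299 shcon group. For KRT85 this made A549 at least 69.2-fold higher, taking 3 counts over the H1299 group as the floor.

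KRT81 and KRT86 share sequence, so that their reads may be split or dropped by the counting. Of all 100-base windows of the KRT81 transcript, 30.3% also occur in another gene, nearly all of them in KRT86, and 28% of the KRT86 windows occur elsewhere. KRT83, KRT7, KRT8, KRT18, KRT19, KRT4, KRT20, KRT80, KRT10 and KRT15 have 0% of such windows. The low KRT86 value of A549 shcon replicate 3 went with a low value of the pseudogene KRT121P, which stood at 36.7, 31.8 and 1.06 CPM in A549 shcon. The other A549 libraries had between 18.4 and 32.2 CPM of KRT121P.

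Several of the expressed keratins are neighbours. On chromosome 12, which holds 27 of the keratin genes, KRT80 and KRT7 are direct neighbours, as are KRT86, KRT81 and KRT83, and as are KRT8 and KRT18. KRT18 is the only type I gene there. The other 28 genes are on chromosome 17, where KRT15 and KRT19 are neighbours, as are KRT33B and KRT34. The order of genes is that of RefSeq on GRCh38, while the counts were made on GRCh37.

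Stratified epithelial keratins were mixed, and the simple epithelial KRT20 and the keratin-like KRT222 are given beside them. KRT4, a keratin of oesophageal and oral mucosa, stood at 8.76, 24.7 and 50.9 CPM in A549 shcon and had 0 counts in H1299 shcon, so that it was at least 1649-fold higher in A549. Its usual partner KRT13 was not among the keratins tested in either line. KRT10 stood at 52.1, 76.1 and 50.02 CPM in A549 shcon, against 16.3, 11.2 and 11.03 CPM in H1299 shcon (log2 difference 2.21, SE 0.24, adjusted p = 3.2e-07). KRT20, a keratin of gut epithelium, stood at 0.515, 1.94 and 2.32 CPM in A549 shcon, at least 91.7-fold higher than in H1299 shcon, where no read was counted. KRT16, a partner of the KRT6 family in activated epidermis, and KRT222, a keratin-like gene, were at least 8.30-fold and 37.4-fold higher in A549, again with 0 counts in H1299 shcon. KRT16 had only 24 counts in A549 shcon and lost its call without A549 shcon replicate 1 (adjusted p = 0.13), without H1299 shcon replicate 2 (adjusted p = 0.052) or without H1299 shcon replicate 3 (adjusted p = 0.058).

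A549 had less of 2 keratins. KRT34, a type I hair keratin, stood at 0.129, 0.0575 and 0.0166 CPM in A549 shcon, against 0.593, 0.495 and 0.518 CPM in H1299 shcon, a log2 difference of -3.00 (SE 0.68, adjusted p = 0.0011). KRT15 stood at 9.77, 11.01 and 9.16 CPM in A549 shcon, against 27.1, 15.5 and 12.9 CPM in H1299 shcon (log2 difference -0.89, SE 0.34, adjusted p = 0.031). Neither pair of groups overlapped, but the KRT15 call was lost without A549 shcon replicate 1 (adjusted p = 0.063), A549 shcon replicate 3 (adjusted p = 0.084) or H1299 shcon replicate 1 (log2 difference -0.51, adjusted p = 0.22). KRT80 stood at 172, 44.9 and 84.4 CPM in A549 shcon, against 108, 202 and 155 CPM in H1299 shcon, and these overlapped (adjusted p = 0.21).

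Counts of all keratins added up to 14820, 19560 and 13670 CPM in A549 shcon, against 1084, 756 and 657 CPM in H1299 shcon. With KD in A549, the sum was 16780, 13040 and 24530 CPM for shPPP2R2A-1 and 29630, 23150 and 15410 CPM for shPPP2R2A-2. With KD in H1299, it was 1051, 972 and 1055 CPM for shPPP2R2A-1 and 546, 539 and 832 CPM for shPPP2R2A-2. Each KD group overlapped the shcon group of its line. The exact permutation test (two-sided) gave p = 0.7 and 0.2 for the hairpins in A549 and p = 0.4 and 0.3 in H1299 (0.7, 0.53, 0.53 and 0.53 after adjustment over the 4 comparisons). With 3 libraries a group, the smallest p this test can give is 0.1.

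The balance of the main pair differed between the lines. Per kilobase, the ratio of KRT8 to KRT18 was 1.18, 0.937 and 1.14 in A549 shcon, against 0.292, 0.354 and 0.264 in H1299 shcon. All 9 A549 libraries, between 0.755 and 1.18, stood above all 9 H1299 libraries, between 0.228 and 0.354. Within a line, neither hairpin group was apart from shcon (exact permutation p between 0.2 and 1 over 4 comparisons, adjusted p between 0.67 and 1). KRT8 has 50 pseudogene entries in the table, and reads on these came to 0.229% to 0.508% of the KRT8 counts in A549 and to 8.18% to 17.3% in H1299. How reads shared by KRT8 and its pseudogenes were counted is not given in the sources used here. For KRT18, with 67 pseudogene entries, the share was 0.155% to 0.345% in A549 and 0.233% to 0.351% in H1299.

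**Figure D2:**
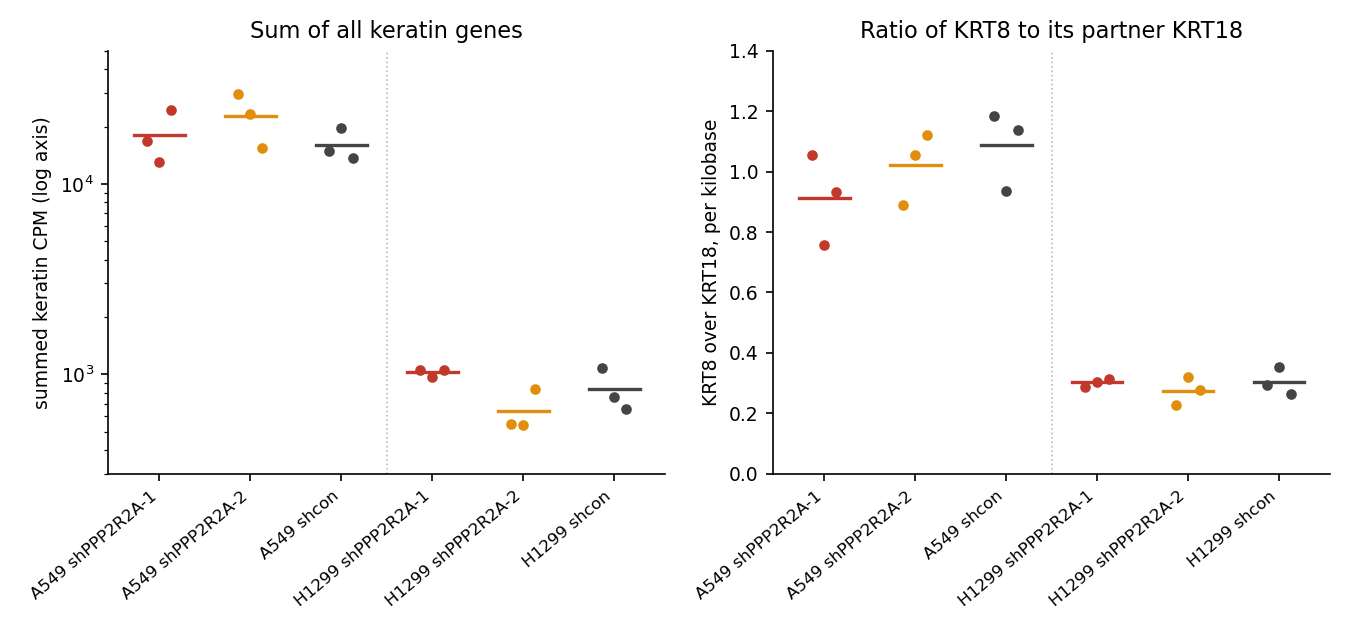
Left, the summed CPM of all 56 keratin entries in each library (log axis); right, the ratio of KRT8 to KRT18 per kilobase, with a line at the mean of 3 libraries. The 9 A549 libraries lie between 13040 and 29630 CPM and the 9 H1299 libraries between 539 and 1084 CPM, and the KRT8 to KRT18 ratio separates the lines but not the hairpins.

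In A549, KD changed a few keratins, most of them of low abundance, and the 4 most abundant ones did not pass the test. With shPPP2R2A-1, 3 of the 17 keratins tested were higher (KRT34, KRT33B and KRT19) and 2 were lower (KRT20 and KRT4) than in shcon, while 13.7% of all 17229 genes were called, 7.34% as higher and 6.34% as lower. With shPPP2R2A-2, 2 keratins were higher (KRT34 and KRT19) and 3 were lower (KRT20, KRT83 and KRT222), while 20.5% of all genes were called, 10.6% as higher and 9.94% as lower. The 2 comparisons share the shcon libraries. The median log2 fold change of the 17 keratins was -0.09 under shPPP2R2A-1 and 0.23 under shPPP2R2A-2, against -0.02 and -0.01 over all genes tested.

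**Figure D3:**
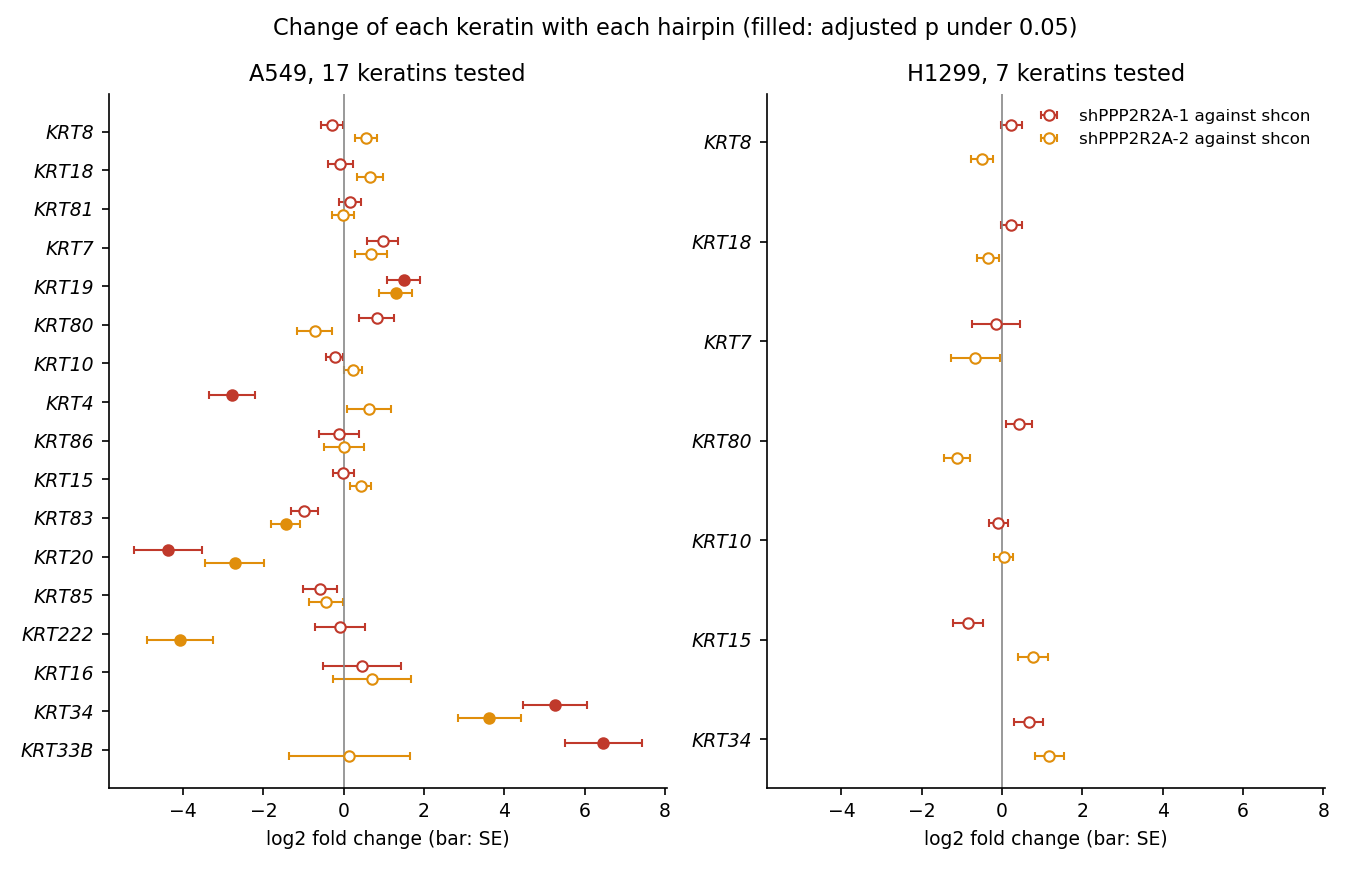
Log2 fold change of each tested keratin against shcon under shPPP2R2A-1 and shPPP2R2A-2, in A549 (left, 17 keratins) and H1299 (right, 7 keratins), with SE as bars and filled points for an adjusted p under 0.05. In A549 the filled points belong to KRT19, KRT20, KRT34, KRT33B, KRT4, KRT83 and KRT222, and in H1299 there is none.

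KRT34 rose with both hairpins in A549. It stood at 1.48, 2.27 and 3.93 CPM under shPPP2R2A-1 and at 1.19, 1.05 and 0.219 CPM under shPPP2R2A-2, against 0.129, 0.0575 and 0.0166 CPM in shcon. No KD library overlapped a shcon library, and the lowest of the 6 was shPPP2R2A-2 replicate 3. The log2 fold change was 5.25 (SE 0.79, adjusted p = 0.0031) under shPPP2R2A-1 and 3.63 (SE 0.79, adjusted p = 0.0091) under shPPP2R2A-2. The shcon group held 10 counts of KRT34 in all, so that the ratio of counts, 39.9 under shPPP2R2A-1, has a counting interval of 21.4 to 84.0, and that under shPPP2R2A-2, 13.1, one of 6.86 to 28.01. Without any 1 library, the adjusted p remained between 0.003 and 0.016 for shPPP2R2A-1 and between 0.0052 and 0.04 for shPPP2R2A-2. In A549, KRT34 passed the filter on low counts only through the KD groups, where it was high. Its calls are therefore not independent of that filter.

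KRT33B, the gene next to KRT34 and a hair keratin as well, was detected in A549 chiefly under shPPP2R2A-1. It stood at 0.443, 0.890 and 1.03 CPM there and at 0.0216, 0 and 0 CPM under shPPP2R2A-2, against 0.0215, 0 and 0 CPM in shcon. This is 104 counts under shPPP2R2A-1 against 1 in shcon, a ratio of 124 with a counting interval of 21.8 to 4954. The log2 fold change was 6.46 (SE 0.96, adjusted p = 0.003) under shPPP2R2A-1 against shcon and 6.32 (SE 0.97, adjusted p = 0.0017) under shPPP2R2A-1 against shPPP2R2A-2. With 5.57% of its 100-base windows also found in KRT33A, KRT34 or KRT31, most of the gene can be told from its neighbours. Since 104 of its counts in A549 lay under shPPP2R2A-1 and 1 in each other group, KRT33B passed the filter on low counts only through the group where it was high, so that its calls are not independent of that filter. It averaged less than 1 CPM and was singled out after its values had been seen.

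The promoters of KRT34 and KRT33B are shown because these neighbours were the keratins with the largest increases, beside those of KRT20 and KRT4, which had the largest decreases under shPPP2R2A-1. Each sequence gives the 250 bases before the start of the gene from RefSeq (GRCh38.p14), 5′ to 3′ on the minus strand, at chr17:41382307-41382556 for KRT34, chr17:41369814-41370063 for KRT33B, chr17:40885243-40885492 for KRT20 and chr12:52814117-52814366 for KRT4. Capitals mark the TATA box letters TATAAA.
KRT34: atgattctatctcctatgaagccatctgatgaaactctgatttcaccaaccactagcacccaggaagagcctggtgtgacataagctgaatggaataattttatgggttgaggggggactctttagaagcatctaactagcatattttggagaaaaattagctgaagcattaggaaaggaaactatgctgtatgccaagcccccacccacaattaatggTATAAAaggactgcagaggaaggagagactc
KRT33B: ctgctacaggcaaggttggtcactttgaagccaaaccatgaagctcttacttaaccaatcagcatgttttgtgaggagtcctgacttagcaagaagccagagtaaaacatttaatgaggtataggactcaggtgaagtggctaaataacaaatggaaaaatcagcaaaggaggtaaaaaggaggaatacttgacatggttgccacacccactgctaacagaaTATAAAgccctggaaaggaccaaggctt
KRT20: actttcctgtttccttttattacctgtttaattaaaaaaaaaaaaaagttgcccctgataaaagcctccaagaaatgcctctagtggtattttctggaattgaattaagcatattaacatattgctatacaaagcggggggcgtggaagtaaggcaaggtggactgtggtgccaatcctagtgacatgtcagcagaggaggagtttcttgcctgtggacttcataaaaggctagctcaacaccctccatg
KRT4: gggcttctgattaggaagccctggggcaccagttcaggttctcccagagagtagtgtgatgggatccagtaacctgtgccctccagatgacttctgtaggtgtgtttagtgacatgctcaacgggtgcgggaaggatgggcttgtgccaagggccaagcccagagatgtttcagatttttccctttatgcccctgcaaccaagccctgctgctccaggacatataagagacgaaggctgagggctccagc
TATAAA begins 31 bases before the start in KRT34 and 28 bases before it in KRT33B, and was not found on either strand in the windows of KRT20 and KRT4. Only these exact letters were searched. Close variants, such as cataaa in the KRT20 window and tataag in the KRT4 window, were not counted, so these windows are not shown to lack a TATA box. A promoter was matched for 34 of the 55 keratin symbols, and 21 of them hold TATAAA on either strand, compared with 10.7% of all 35116 promoters. Many keratins expressed here had no match, among them KRT7, KRT15, KRT18, KRT19, KRT80 and KRT81. Keratins are counted by symbol, whereas the share over all promoters is counted by promoter. The AP-1 letters TGANTCA were found in 0 of the 34, compared with 6.57% of all promoters, and the GC box GGGCGG in 4, compared with 42.6%. Keratin genes of a cluster are related in sequence, and the TATA box was added to the search after results had been seen. A match is a description of the letters only.

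KRT19 was higher with both hairpins in A549. It stood at 444, 359 and 1258 CPM under shPPP2R2A-1 and at 738, 615 and 436 CPM under shPPP2R2A-2, against 211, 296 and 228 CPM in shcon. No KD library overlapped shcon, and shPPP2R2A-1 replicate 3 was the highest of the 9. The log2 fold change was 1.49 (SE 0.41, adjusted p = 0.035) under shPPP2R2A-1 and 1.30 (SE 0.41, adjusted p = 0.044) under shPPP2R2A-2. Without any 1 library, the log2 fold change lay between 0.70 and 1.80 under shPPP2R2A-1 and between 1.13 and 1.51 under shPPP2R2A-2. Neither call held in every fit that left out 1 library. That of shPPP2R2A-1 was lost without shPPP2R2A-1 replicate 3 (log2 fold change 0.70, adjusted p = 0.11), shPPP2R2A-2 replicate 2 (adjusted p = 0.055), shcon replicate 1 (adjusted p = 0.094) or shcon replicate 3 (adjusted p = 0.11). That of shPPP2R2A-2 was lost without shPPP2R2A-2 replicate 1 (adjusted p = 0.15), shPPP2R2A-2 replicate 2 (adjusted p = 0.12), shcon replicate 1 (adjusted p = 0.12) or shcon replicate 3 (adjusted p = 0.13).

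KRT20 fell with both hairpins in A549. It stood at 0.133, 0.0636 and 0.0245 CPM under shPPP2R2A-1 and at 0.498, 0.107 and 0.1096 CPM under shPPP2R2A-2, against 0.515, 1.94 and 2.32 CPM in shcon. The groups did not overlap, although shPPP2R2A-2 replicate 1 came close to shcon replicate 1. The log2 fold change was -4.38 (SE 0.84, adjusted p = 0.0084) under shPPP2R2A-1 and -2.71 (SE 0.74, adjusted p = 0.024) under shPPP2R2A-2. KRT20 had 10, 33 and 265 counts under shPPP2R2A-1, under shPPP2R2A-2 and in shcon, and passed the filter on low counts only through the shcon group, where it was high. The call of shPPP2R2A-2 was lost without shPPP2R2A-2 replicate 2 (adjusted p = 0.11), shPPP2R2A-2 replicate 3 (adjusted p = 0.074) or shcon replicate 3 (adjusted p = 0.095), and that of shPPP2R2A-1 held without any 1 library (adjusted p between 0.0043 and 0.036).

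KRT4 separated the 2 hairpins. It stood at 6.24, 4.16 and 1.94 CPM under shPPP2R2A-1 and at 30.9, 36.5 and 62.3 CPM under shPPP2R2A-2, against 8.76, 24.7 and 50.9 CPM in shcon. With shPPP2R2A-1 all libraries were below shcon (log2 fold change -2.78, SE 0.58, adjusted p = 0.011), whereas under shPPP2R2A-2 the groups overlapped (log2 fold change 0.63, SE 0.54, adjusted p = 0.43). The difference of shPPP2R2A-1 from shPPP2R2A-2 was itself past the test, at -3.41 on the log2 scale (SE 0.59, adjusted p = 0.0031). Without any 1 library, its adjusted p stayed between 0.00089 and 0.021.

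KRT83, a hair keratin, fell under shPPP2R2A-2. It stood at 2.72, 1.97 and 2.09 CPM under shPPP2R2A-1 and at 1.34, 1.18 and 2.32 CPM under shPPP2R2A-2, against 3.99, 6.003 and 3.32 CPM in shcon. All 6 KD libraries were below all 3 shcon libraries. The log2 fold change was -1.45 (SE 0.35, adjusted p = 0.014) under shPPP2R2A-2 and -0.98 (SE 0.34, adjusted p = 0.079) under shPPP2R2A-1, and the difference between the hairpins did not pass the test (0.47, SE 0.35, adjusted p = 0.38). DESeq2 also called the change under shPPP2R2A-1 (-0.98, adjusted p = 0.026). The call under shPPP2R2A-2 was lost without shPPP2R2A-2 replicate 1 (adjusted p = 0.064) or shPPP2R2A-2 replicate 2 (adjusted p = 0.079), and in the fit of all 18 libraries (adjusted p = 0.063).

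KRT222, whose mean was under 1 CPM in each group and which was singled out after its values were seen, fell under shPPP2R2A-2 as well. It stood at 1.08, 0.382 and 0.393 CPM under shPPP2R2A-1 and at 0.0649, 0.0428 and 0 CPM under shPPP2R2A-2, against 0.387, 0.633 and 0.945 CPM in shcon. With shPPP2R2A-2 there were 5 counts against 108 in shcon, a ratio of 0.0531 with a counting interval of 0.0169 to 0.128 (log2 fold change -4.08, SE 0.82, adjusted p = 0.0063). Of its 100-base windows, 56.5% also occur in another annotated gene, so that its level is uncertain. In A549, KRT222 passed the filter on low counts only through shcon and shPPP2R2A-1, where it was high. Its calls against shcon and between the hairpins are therefore not independent of that filter.

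**Figure D4:**
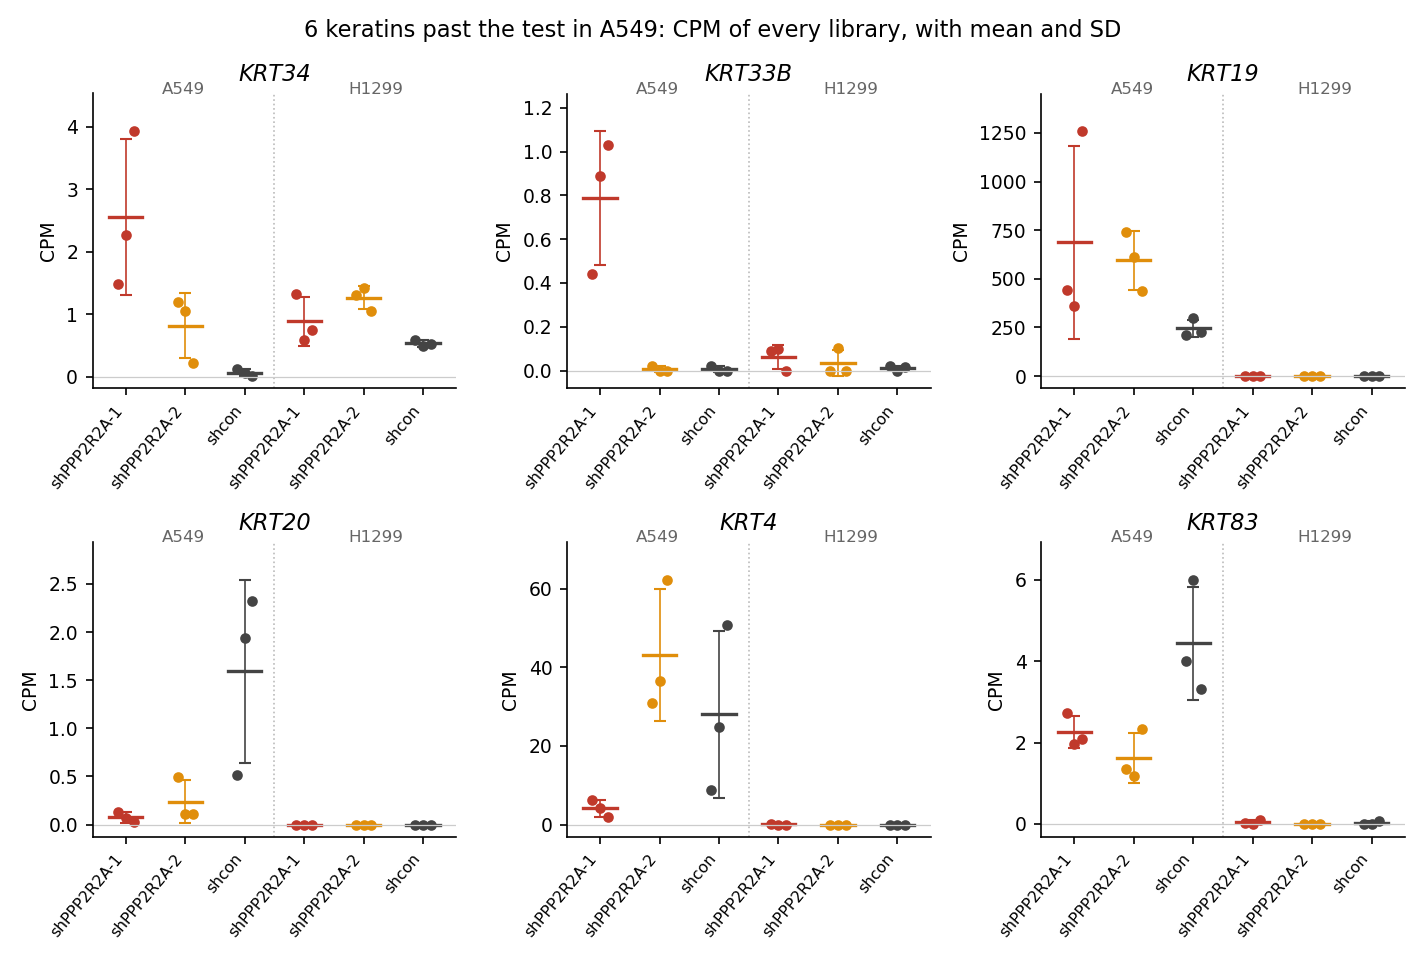
CPM of KRT34, KRT33B, KRT19, KRT20, KRT4 and KRT83 in every library of A549 (left of the dotted line) and H1299 (right), under shPPP2R2A-1 and shPPP2R2A-2 left of shcon; lines and bars are the mean and SD of 3 libraries. In A549, KRT34, KRT19, KRT20 and KRT83 keep both KD groups apart from shcon, whereas KRT33B and KRT4 set shPPP2R2A-1 apart from both other groups.

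The most abundant keratins did not pass the test against shcon in A549. Without the filter on low counts, KRT7 was called higher with both hairpins and KRT18 under shPPP2R2A-2. KRT8 stood at 5027, 3378 and 5169 CPM under shPPP2R2A-1 and at 10410, 8202 and 5580 CPM under shPPP2R2A-2, against 4607, 6793 and 5167 CPM in shcon. KRT18 stood at 3858, 3618 and 4489 CPM under shPPP2R2A-1 and at 9456, 6288 and 4025 CPM under shPPP2R2A-2, against 3148, 5867 and 3670 CPM in shcon. KRT8 and KRT18 both overlapped shcon with each hairpin, and both were highest in shPPP2R2A-2 replicate 1. KRT7 stood at 4160, 2794 and 8233 CPM under shPPP2R2A-1 and at 5598, 4112 and 2603 CPM under shPPP2R2A-2, against 3322, 2427 and 1995 CPM in shcon (adjusted p = 0.12 and 0.24). KRT81 stood at 3044, 2678 and 5055 CPM under shPPP2R2A-1 and at 3199, 3730 and 2582 CPM under shPPP2R2A-2, against 3257, 3989 and 2407 CPM in shcon (adjusted p = 0.74 and 0.99). In shPPP2R2A-1 replicate 3, KRT7, KRT19, KRT80 and KRT81 each had the highest value of the 9 A549 libraries.

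Between the 2 hairpins, 3 of the 17 keratins were higher under shPPP2R2A-1 than under shPPP2R2A-2 in A549 (KRT33B, KRT222 and KRT80) and 2 were lower (KRT4 and KRT8), while 17.5% of all genes were called, 8% as higher and 9.54% as lower. KRT80 stood at 167, 135 and 229 CPM under shPPP2R2A-1 and at 90.0, 53.4 and 38.4 CPM under shPPP2R2A-2, with 172, 44.9 and 84.4 CPM in shcon. The hairpins did not overlap (1.53 on the log2 scale, SE 0.44, adjusted p = 0.034), whereas shcon overlapped both, and the change under shPPP2R2A-1 against shcon (0.82, SE 0.44, adjusted p = 0.23) passed the test without shcon replicate 1 (1.45, adjusted p = 0.041). The KRT80 call was lost without any 1 of shPPP2R2A-1 replicate 1, 2 or 3 (adjusted p = 0.058, 0.058 and 0.077) or shPPP2R2A-2 replicate 2 or 3 (adjusted p = 0.12 each). KRT8 was lower under shPPP2R2A-1 by -0.85 on the log2 scale (SE 0.27, adjusted p = 0.048), and this was lost without shPPP2R2A-1 replicate 1 (adjusted p = 0.077) or 2 (0.17), shPPP2R2A-2 replicate 1 (0.19) or 2 (0.14), or shcon replicate 1 (0.052) or 3 (0.06). KRT222 differed by 3.99 (SE 0.82, adjusted p = 0.0073).

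The remaining tested keratins of A549 did not pass any hairpin comparison. KRT10 ranged from 47.2 to 54.8 CPM under shPPP2R2A-1 and from 51.9 to 81.7 CPM under shPPP2R2A-2, against 50.02 to 76.1 CPM in shcon. KRT15 ranged from 6.75 to 13.8 CPM under shPPP2R2A-1 and from 11.4 to 14.6 CPM under shPPP2R2A-2, against 9.16 to 11.01 CPM in shcon. KRT86 ranged from 8.69 to 17 and from 12.6 to 20.2 CPM with the hairpins, against 4.18 to 23.99 CPM in shcon, and KRT85 from 0.466 to 1.37 and from 0.877 to 0.962 CPM, against 1.13 to 1.39 CPM in shcon. KRT16 remained at or under 0.433 CPM in all A549 libraries.

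In H1299, no keratin passed the test against shcon. With shPPP2R2A-1, 0 of the 7 keratins tested were called by edgeR, 1 had an unadjusted p under 0.05 (KRT15), and DESeq2 also called 0, while 2.74% of all 15972 genes were called, 0.808% as higher and 1.93% as lower. With shPPP2R2A-2, 0 of 7 were called by edgeR, 2 had an unadjusted p under 0.05 (KRT34 and KRT80), and DESeq2 called both of these, while 3.09% of all genes were called, 1.37% as higher and 1.72% as lower. KRT34 stood at 1.32, 0.589 and 0.744 CPM under shPPP2R2A-1 and at 1.31, 1.42 and 1.06 CPM under shPPP2R2A-2, against 0.593, 0.495 and 0.518 CPM in shcon. It was thus above every shcon library in all 3 shPPP2R2A-2 libraries, with a log2 fold change of 1.18 (SE 0.36, adjusted p = 0.11), and in 2 of 3 shPPP2R2A-1 libraries (0.67, SE 0.37, adjusted p = 0.34). Each shPPP2R2A-1 library was above the shcon library with the same number for KRT34 and KRT80 and below it for KRT15, and the fit of shPPP2R2A-1 against shcon with the number as a block called 0 of the 7.

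The 2 hairpins differed in H1299 for KRT80 and KRT15. Against shPPP2R2A-2, 1 of 7 keratins was higher and 1 was lower under shPPP2R2A-1, while 16.2% of all genes were called, 6.77% as higher and 9.48% as lower. KRT80 stood at 174, 223 and 251 CPM under shPPP2R2A-1 and at 39.5, 86.5 and 99.2 CPM under shPPP2R2A-2, with 108, 202 and 155 CPM in shcon. The difference between the hairpins was 1.54 on the log2 scale (SE 0.33, adjusted p = 0.011), in the same direction as in A549, and all shPPP2R2A-2 libraries were below shcon (-1.12, SE 0.33, adjusted p = 0.097). That last change passed the test without shPPP2R2A-2 replicate 3 (-1.35, adjusted p = 0.038). KRT15 stood at 12.8, 11.5 and 7.57 CPM under shPPP2R2A-1 and at 51.3, 22.9 and 23.98 CPM under shPPP2R2A-2, with 27.1, 15.5 and 12.9 CPM in shcon (-1.62, SE 0.38, adjusted p = 0.017). The KRT15 call was lost without shPPP2R2A-1 replicate 3 (adjusted p = 0.078).

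KRT8, KRT18, KRT10 and KRT7 of H1299 passed no hairpin comparison. KRT8 ranged from 198 to 222 CPM under shPPP2R2A-1 and from 96.7 to 175 CPM under shPPP2R2A-2, against 117 to 247 CPM in shcon. KRT18 ranged from 525 to 625 and from 297 to 511 CPM, against 357 to 682 CPM in shcon. KRT10 ranged from 11.5 to 14.4 and from 11.2 to 17.8 CPM, against 11.03 to 16.3 CPM in shcon, and KRT7 from 1.13 to 4.79 and from 0.577 to 3.53 CPM, against 2.33 to 3.93 CPM in shcon. The 7 keratins had a median log2 fold change of 0.23 under shPPP2R2A-1 and -0.35 under shPPP2R2A-2, against -0.04 and -0.01 over all genes tested.

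The change of 1 keratin differed between the lines. For the 7 keratins tested in both, the change in A549 minus that in H1299 was tested in a fit of all 18 libraries. With shPPP2R2A-1, KRT34 was the only one called (4.54 on the log2 scale, SE 0.87, adjusted p = 0.018), while 1.09% of all 18827 genes were called, 0.807% as higher and 0.287% as lower. This call was lost without A549 shPPP2R2A-1 replicate 3 (4.09, adjusted p = 0.056), A549 shcon replicate 3 (4.04, adjusted p = 0.072) or H1299 shPPP2R2A-1 replicate 3 (4.42, adjusted p = 0.057). With shPPP2R2A-2, none of the 7 was called by edgeR or DESeq2 and 3 had an unadjusted p under 0.05, while 0.643% of all genes were called (0.297% as higher), and KRT34 gave 2.38 (SE 0.87, adjusted p = 0.21). Over both hairpins, none was called by edgeR, 1 had an unadjusted p under 0.05 and DESeq2 called that 1, KRT34, while 0.181% of all genes were called (KRT34: 3.46, SE 0.78, adjusted p = 0.058). It passed the test without A549 shPPP2R2A-1 replicate 1 (adjusted p = 0.048), A549 shPPP2R2A-2 replicate 3 (adjusted p = 0.018) or A549 shcon replicate 1 (adjusted p = 0.04).

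Some transcripts of proteins that tie keratins to desmosomes differed between the 2 hairpins. Of 22 such genes 16 were tested in A549, and 0 were higher and 5 lower under shPPP2R2A-1 than under shPPP2R2A-2, with 8.0% and 9.54% of all genes called higher and lower. Relative to shcon, 0 of the 16 rose and 5 fell under shPPP2R2A-1 (7.34% and 6.34% of all genes, median log2 fold change of the list -0.48), while 3 rose and 2 fell under shPPP2R2A-2 (10.6% and 9.94% of all genes, median 0.09). PKP3, a plakophilin of the desmosomal plaque, stood at 24.8, 16.9 and 25.3 CPM under shPPP2R2A-1 and at 69.8, 69.5 and 71.5 CPM under shPPP2R2A-2, against 42.1, 42.4 and 34.4 CPM in shcon (log2 fold change -0.83, SE 0.19, adjusted p = 0.017, and 0.84, SE 0.19, adjusted p = 0.011). JUP, the plakoglobin of desmosomes and adherens junctions, stood at 265, 266 and 374 CPM under shPPP2R2A-1 and at 710, 700 and 771 CPM under shPPP2R2A-2, against 286, 521 and 430 CPM in shcon (-0.45, adjusted p = 0.21, and 0.83, adjusted p = 0.026). TCHP, a protein that binds KRT8 and KRT18 filaments, was lower with both hairpins (-0.91, adjusted p = 0.0068, and -0.59, adjusted p = 0.027). In H1299, 0 of 14 were called under shPPP2R2A-1, and under shPPP2R2A-2 only JUP was (1.56, SE 0.28, adjusted p = 0.019), with 2.74% and 3.09% of all genes called. Between the hairpins in H1299, 0 of 14 were higher and 4 were lower under shPPP2R2A-1 (JUP, PPL, FAM83H and PKP2, log2 differences -1.31, -1.74, -1.23 and -0.77, adjusted p = 0.011, 0.02, 0.029 and 0.042), with 6.77% and 9.48% of all genes called.

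Among other intermediate filament genes, 12 of 16 were tested in A549, of which 2 were higher and 2 lower under shPPP2R2A-1 and 5 were higher and 4 lower under shPPP2R2A-2, with 13.7% and 20.5% of all genes called. VIM, the filament protein of mesenchymal cells, stood at 1455, 1626 and 2406 CPM under shPPP2R2A-1 and at 1458, 1184 and 936 CPM under shPPP2R2A-2, against 1439, 1013 and 787 CPM in shcon (adjusted p = 0.087 and 0.72). INA, the neuronal alpha-internexin, stood at 157, 224 and 198 CPM under shPPP2R2A-1 and at 78.8, 75.4 and 74.8 CPM under shPPP2R2A-2, against 50.7, 45.3 and 45.2 CPM in shcon (2.03, adjusted p = 0.00023, and 0.71, adjusted p = 0.012). In A549, BFSP1 rose and NES fell under shPPP2R2A-2 (2.43, adjusted p = 6.8e-05, and -2.12, adjusted p = 0.0011). SYNC rose with both hairpins there (1.68, adjusted p = 0.0058, and 1.74, adjusted p = 0.0028). INA was also higher under shPPP2R2A-1 in H1299 (1.03, adjusted p = 0.0053), where 1 of 10 was higher and 2 were lower, against 2 higher and 0 lower under shPPP2R2A-2, with 2.74% and 3.09% of all genes called. VIM was lower in A549 shcon than in H1299 shcon, at 1079 ± 331 and 2715 ± 513 CPM (log2 difference -1.33, SE 0.25, adjusted p = 2e-04).

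Regulators known to act on keratin genes were tested beside them. In A549, 2 of 14 were higher and 4 lower under shPPP2R2A-1, and 2 were higher and 0 lower under shPPP2R2A-2, with 13.7% and 20.5% of all genes called. SNAI2, a repressor of epithelial genes, stood at 7.28, 6.55 and 6.18 CPM under shPPP2R2A-1 and at 10.0, 8.91 and 4.29 CPM under shPPP2R2A-2, against 2.04, 0.863 and 0.679 CPM in shcon, and no KD library overlapped shcon (2.48, adjusted p = 0.0057, and 2.72, adjusted p = 0.0022). ELF3, an epithelial transcription factor, stood at 153, 156 and 120 CPM under shPPP2R2A-1 and at 162, 199 and 169 CPM under shPPP2R2A-2, against 172, 367 and 292 CPM in shcon (-0.96, adjusted p = 0.025, and -0.64, adjusted p = 0.085). SOX9 fell under shPPP2R2A-1 in A549 (-1.26, adjusted p = 0.012), and GRHL3 rose under shPPP2R2A-2 (1.71, adjusted p = 0.021). In H1299, 0 of 10 were called with either hairpin. Between the control groups, 8 of 15 were higher and 4 lower in A549, with 56.0% of all genes called. Among those higher were ELF3 and TFAP2C, which had 277 and 33.1 CPM in A549 shcon and 0 counts in H1299 shcon. Of the regulators called higher, TP63, GRHL3, ELF3, EHF and TFAP2C passed the filter on low counts in A549 but not in H1299. ESRP2, called lower, passed it in H1299 but not in A549. The counts of regulators called between the lines are thus not independent of that filter.

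Markers of epithelial cells and of other cell types moved with some groups, and their part in the keratin values was not tested. With shPPP2R2A-1 in A549, 0 of 10 epithelial markers were higher and 3 were lower (TJP3, EPCAM and CLDN7), and under shPPP2R2A-2, 1 was higher (CDH3) and 0 lower, with 13.7% and 20.5% of all genes called. Their summed level ranged from 54.7 to 73.5 CPM under shPPP2R2A-1 and from 103 to 145 CPM under shPPP2R2A-2, against 67.6 to 134 CPM in shcon. Of the fibroblast markers, 4 of 7 tested were higher under shPPP2R2A-1 and 2 under shPPP2R2A-2, with 7.34% and 10.6% of all genes called higher, and the list summed to between 39.0 and 72.3 CPM and between 73.1 and 116 CPM, against 18.7 to 25.3 CPM in shcon. Endothelial markers summed to between 6.02 and 43.3 CPM and between 16.6 and 36.9 CPM with the hairpins, against 7.02 to 10.3 CPM in shcon, with CLDN5 at 0 in all 3 groups. Of the 2 tested, ESAM averaged 19.6 and 24.9 CPM with the hairpins, against 6.46 CPM in shcon (1.61, adjusted p = 0.1, and 1.96, adjusted p = 0.045), and CDH5 averaged 0.345 and 0.836 CPM, against 2.67 CPM in shcon (-2.94, adjusted p = 0.0051, and -1.66, adjusted p = 0.027). Leukocyte markers, with CD3D and CD3E at 0 in all 3 groups, summed to between 6.39 and 9.03 CPM and between 8.59 and 10.1 CPM, against 9.66 to 18.5 CPM in shcon. In H1299, 1 epithelial marker (TJP3) of 5 was lower under shPPP2R2A-1 and 1 fibroblast marker (COL1A1) of 2 was higher under shPPP2R2A-2, with 1.93% of all genes called lower under shPPP2R2A-1 and 1.37% called higher under shPPP2R2A-2, and the epithelial list summed to between 35.7 and 44.5 CPM and between 18.4 and 30.3 CPM, against 20.4 to 29.8 CPM in shcon.

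Cornified envelope genes, whose products join keratins in the outer epidermis, were low in both lines. Of 14 such genes, only 4 passed the filter in A549 and 3 did so in H1299. SBSN (suprabasin), an envelope component, was the only one called against shcon, and it stood at 3.47, 2.90 and 12.7 CPM under shPPP2R2A-1 and at 1.19, 0.534 and 0.0657 CPM under shPPP2R2A-2, against 0.344, 0.0575 and 0.0166 CPM in A549 shcon (5.57, SE 1.07, adjusted p = 0.0083, and 2.17, SE 1.05, adjusted p = 0.17). All shPPP2R2A-1 libraries were above all shcon libraries, whereas shPPP2R2A-2 overlapped shcon.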

How the data were processed

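According to the labels, the authors prepared stranded mRNA libraries (total RNA, paired 100-base reads). Their notes name STAR 2.7.3a, HTSeq 0.11.2, Bowtie2, Cufflinks 2.2.1, cutadapt 2.5, FastQC 0.11.8 and DESeq2 with GRCh37/hg19, without roles or order, and give no rule for reads that match several genes. Deposited per gene by the authors were unnormalized read counts, which were used for every result, and a normalized signal (counts divided by 1 factor per library), which was not used.

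Counts were analysed in R 4.3.3 with edgeR 4.0.16 (TMM, a filter on low counts by group, robust quasi-likelihood fit), 1 fit per line for the hairpins and 1 fit of all 18 libraries for the lines, with Benjamini-Hochberg adjustment over all genes tested. CPM use the TMM factors of the 18-library fit. Levels per kilobase use the shortest APPRIS principal transcript of GENCODE. Single values were compared with exact permutation tests in scipy 1.17.1. The alternatives were DESeq2 1.42.0, median-ratio factors, no filter, a replicate block, leaving out each library and, for the hairpins, all 18 libraries in 1 fit. The code was tested on simulated data.

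Values are given for keratins averaging at least 1 CPM in a group of the line, with fold changes for those past the threshold in any comparison. From each other list only some members are named, and these are not always those with the smallest adjusted p. VIM was named although it was not called against shcon. The members and lists were chosen with earlier results of these data known. Same-numbered replicates deviated together in H1299 for shPPP2R2A-1 with shcon (correlations 0.144 to 0.235) and with shPPP2R2A-2 (0.202 to 0.386), but not for the other pairs of groups. Replicates of a group correlated at 0.963 to 0.991 in log2 CPM, and none was a copy of another.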

Additional observations from a re-analysis of the deposited data

Results flagged for a closer look

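The change of KRT34 with shPPP2R2A-1 differed between the lines by a test of the difference itself. The log2 fold change against shcon was larger in A549 than in H1299 by 4.54 (SE 0.87, adjusted p = 0.018 from the edgeR interaction contrast over 18827 genes). KRT34 was higher than every shcon library in 3 of 3 shPPP2R2A-1 libraries of A549 and in 2 of 3 of H1299, and the A549 shcon group held 10 counts in all, against 88 in H1299 shcon. The call was lost without A549 shPPP2R2A-1 replicate 3 (adjusted p = 0.056), A549 shcon replicate 3 (0.072) or H1299 shPPP2R2A-1 replicate 3 (0.057), and the same contrast was not called under shPPP2R2A-2 (2.38, adjusted p = 0.21) or over both hairpins (3.46, adjusted p = 0.058).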

How the results depend on the processing

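No result changed direction under an alternative that kept all libraries. Without the filter on low counts, 5 keratins were higher in A549 under shPPP2R2A-1, 4 under shPPP2R2A-2 and 5 between the hairpins. The calls gained against shcon were KRT7 and KRT80 as higher under shPPP2R2A-1, and KRT7 and KRT18 as higher and KRT80 as lower under shPPP2R2A-2. In H1299, leaving out the filter gave 1 lower under shPPP2R2A-1, 1 higher and 1 lower under shPPP2R2A-2, and 3 higher and 2 lower between the hairpins. It also gave 4 lower in A549 than in H1299, and a larger change in A549 for 2 keratins over both hairpins, 2 under shPPP2R2A-1 and 3 under shPPP2R2A-2. DESeq2 called 1 higher and 1 lower under shPPP2R2A-2 in H1299 and 1 over both hairpins between the lines. In A549 it also called KRT83 lower under shPPP2R2A-1 (adjusted p = 0.026) and KRT34 higher between the hairpins (0.042), and KRT34 was also called there in the fit of all 18 libraries (0.041). The cause of these shifts was not tested.

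With the replicate number as a block, 1 keratin was higher under shPPP2R2A-2 and 1 was lower between the hairpins in A549, and 1 (KRT80) was lower under shPPP2R2A-2 in H1299. In the H1299 comparisons whose numbers pair the samples, the block changed no call. For KRT19 in A549 the block gave adjusted p = 0.085 under shPPP2R2A-1 and 0.07 under shPPP2R2A-2, and for KRT8 between the hairpins 0.092, although the numbers share no pairing there.

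Without any 1 library, the counts in A549 ranged from 2 to 3 higher and stayed at 2 lower under shPPP2R2A-1, from 1 to 3 higher and 1 to 3 lower under shPPP2R2A-2, and from 2 to 3 higher and 1 to 3 lower between the hairpins. In H1299 they stayed at 0 under shPPP2R2A-1, ranged from 0 to 1 lower under shPPP2R2A-2, and from 1 to 3 higher and 0 to 2 lower between the hairpins. Between the lines they ranged from 13 to 14 higher and 1 to 2 lower, and for the change in A549 minus H1299 from 0 to 1 over both hairpins and under shPPP2R2A-1. The keratin sum relative to shcon ranged from 0.931 to 1.29 and 1.20 to 1.65 in A549 and from 1.12 to 1.45 and 0.651 to 0.904 in H1299. Uncalled log2 values changed sign for KRT222 under shPPP2R2A-1 (-0.76 to 0.27), KRT33B under shPPP2R2A-2 (-1.78 to 1.92) and KRT19 between the hairpins (-0.63 to 0.51) in A549, and for PPP2R2A between the lines over both hairpins (-0.025 to 0.40) and under shPPP2R2A-2 (-0.32 to 0.16). With 35.7 M to 69.3 M counts per library, keratins under about 1 CPM rest on few reads, and a count of 0 does not show absence.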
